A study of Sus scrofa with 20 samples.

Results

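Among 801159 distinct clean tags in longissimus muscle of 2 pig breeds, 90 tags fell at every step from 49 to 91 dpc in both breeds. They were selected on their levels at 49, 63, 77 and 91 dpc. The level of a tag is in TPM, its count divided by the total clean tags of its library and scaled to 1000000, and a tag that was not listed was given 0. A member fell strictly over the 4 stages in Landrace (LR) and also in Lantang (LT). It had at least 10 TPM at 49 dpc in both breeds, and its ratio of 49 to 91 dpc, on TPM + 1, was at least 2 in both. The libraries of 35 dpc and of all stages after birth took no part in the choice. The members are numbered below by rank of their mean TPM at 49 dpc over the breeds, rank 1 being the highest.

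The muscle was taken at 35, 49, 63, 77 and 91 days post coitus (dpc) and at 2, 28, 90, 120 and 180 days post natum (dpn). LR is a breed of fast lean growth and LT is a Chinese breed that grows slowly and is fatter. Equal amounts of RNA from 3 animals made up a pool, and there was 1 pool and 1 library per breed at every stage, 20 in all and none replicated. All fetuses were male and came from 2 sows per breed and stage. The animals sampled after birth were boars, which by the paper's methods were castrated after 2 weeks. Those of 2 dpn were thus sampled before castration and the older ones after it. Between 2 dpn and the later ages, age and castration cannot be told apart. The labels name no treatment. Digital gene expression (DGE) counts short tags: NlaIII cuts the cDNA at CATG, and CATG with the next 17 bases is read from the site nearest the 3′ end, so the count of a tag does not grow with the length of its transcript. Tags were not matched to genes here, because no transcript sequences were used, and every value below is that of a tag. The tissue could not be checked against marker genes for the same reason.

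In fetal muscle, myoblasts divide, leave the cell cycle and fuse. Primary fibers form first, and secondary fibers are then laid down around them until late gestation. After birth the fibers mainly enlarge and change their contractile and metabolic proteins. Transcripts of dividing precursors, of embryonic forms of the contractile proteins and of the fetal connective tissue are known to decline over this time. In a bulk sample, fewer cells of a type and less RNA per cell cannot be told apart.

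The sequences of the members described below are printed so that each can be found in other tag data. Capitals mark the NlaIII site and the 17 bases after it are in lower case. The first 5 had the highest mean TPM at 49 dpc.
Rank 1: CATGtactctgtgcagcgaaa
Rank 2: CATGtgtaactgtacaataag
Rank 3: CATGcttagtttaatgctttc
Rank 4: CATGctgtaactgtaatgttg
Rank 5: CATGgcttcttctgatatcca

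The next 4 had the largest fitted difference between 35 dpc and the stages after birth among the members called in the test described below. All 4 reached the 30 counts needed for that test only through 35 dpc, so their place in this order is a description. The alternative test by DESeq2 called none of these 4. Ranks 70 and 80 were at 0 in all 10 libraries after birth, so the size of their fitted difference rests on no count there.
Rank 6: CATGcctcccaagaagcctga
Rank 70: CATGagttgaatgaagctaag
Rank 80: CATGtggacttgtttatgatt
Rank 88: CATGgtgatagagggtgttta

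The next 5 fell most from 49 to 91 dpc, by the smaller fold of the breeds.
Rank 8: CATGcttctggagcacaagat
Rank 22: CATGtgtgtttatggctgaat
Rank 28: CATGttgtccagagaggcata
Rank 49: CATGtgattttgtaggttatt
Rank 85: CATGctgtttgtgtattgatt

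The last 3 are shown for their level at 35 dpc, which was high against 49 dpc in ranks 47 and 64, as it was in rank 80, and low in rank 11, as it was in ranks 2 and 22.
Rank 11: CATGgtcccatggacaaaagt
Rank 47: CATGtggtttttgatttgcag
Rank 64: CATGttgttttgaactgatcg

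The members were compared in sequence with the 7724 tags that had at least 10 TPM at 49 dpc in both breeds, which serve as the comparison set below. The median GC content of the 17 bases was 41.2% in both. The members ranged from 11.8% to 88.2% GC. The motif AATAAA, the commonest polyadenylation signal, was present in 2 members (2.22%) and in 2.52% of the comparison set. Its variant ATTAAA was in 1 member and in 1.06% of the set. The AU-rich core ATTTA was in 5 members (5.56%) and in 2.84% of the set, and its opposite strand TAAAT in 2 members and 3.82%. These motifs were sought in the 17 bases on the strand that was read. AATAAA or ATTAAA on the opposite strand was in 3 members and 2.85% of the set. A further CATG lay in 2 members (2.22%) against 2.80%. No 2 members were within 2 bases of each other, and none overlapped another in sequence. Rank 45 had a neighbor 1 base away that was about as abundant, with 812 counts against 808.

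Depth differed between the libraries. Total clean tags ran from 2157111 to 5322022 a library, and 3 counts, the smallest amount taken as detected, stood for 0.564 to 1.39 TPM. LR at 120 and 180 dpn stood apart from the other 18 libraries. Tags with a further CATG in their 17 bases took 0.116% and 0.224% of their counts, against 2.14% to 3.80% in the others, and 70.5% and 69.2% of the comparison set had at least 3 counts there, against 92.6% or more elsewhere. The main counts after birth are given without these 2 libraries too.

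The fall itself is a description, since it chose the members. Their summed level in LR was 8342 TPM at 49 dpc, 5572 at 63 dpc, 3623 at 77 dpc and 1804 at 91 dpc. In LT it was 5883, 3517, 2278 and 1248 TPM. The comparison set kept its median over these stages, with 29.6 TPM at 49 dpc and 27.5 at 91 dpc in LR and 25.8 and 23.5 TPM in LT. The median member fell by 1.83 on the log2 scale in LR and by 1.94 in LT. A fall of at least 4-fold was reached by 38 members in LR and 42 in LT, and one of at least 8-fold by 18 members in each breed.

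The breeds differed in the step that held the largest drop. In LR it was the last step, 77 to 91 dpc, for 42 members, the middle step for 31 and the first step, 49 to 63 dpc, for 17. In LT it was the first step for 43 members, the middle step for 20 and the last for 27. These are counts from single libraries and were not tested, and the like counts for the comparison set were not made. The set moved between the breeds as well. Its median log2 ratio of LT to LR was -0.19 at 49 dpc, -0.47 at 63 dpc, -0.29 at 77 dpc and -0.24 at 91 dpc. Whether the steps of the members differed beyond this shift was not tested.

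Of the comparison set, 549 tags (7.11%) fell at each step and at least 2-fold in LR and 368 (4.76%) did so in LT. The 90 members were 16.4% of the LR tags and 24.5% of the LT tags. Without the 2-fold limit, 171 tags fell at each step in both breeds.

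Rank 28 had the largest fall by the smaller fold of the breeds. In LR it had 56.4, 39.5, 4.06 and 1.90 TPM over the 4 stages, and in LT 60.6, 21.03, 7.27 and 2.25 TPM. The breeds started and ended at like levels, and LR made most of its drop between 63 and 77 dpc.

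Rank 22 dropped from 58.0, 31.9 and 6.23 to 3.32 TPM in LR and from 73.2, 22.2 and 9.84 to 2.25 TPM in LT, a 13.6-fold and a 22.8-fold fall on TPM + 1. Rank 85 fell from 13.7, 3.19 and 1.08 TPM to 0 in LR and from 14.8, 2.68 and 0.855 to 0.564 TPM in LT. It was the only member at 0 in a library of 91 dpc.

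Rank 49 went from 37.8 over 24.4 and 9.47 to 2.37 TPM in LR and from 25.4 over 4.59 and 4.28 to 0.940 TPM in LT. Rank 8 went from 189 over 101 and 53.1 to 17.1 TPM in LR and from 173 over 64.2 and 31.4 to 14.8 TPM in LT. Both had their steepest step in LT between 49 and 63 dpc and in LR later.

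At the limit of the choice, the members just inside were rank 90 and rank 74.
Rank 90: CATGtgactttggtgccctgt
Rank 74: CATGaataacttttcaaagag
The fold of rank 90 was 3.75 in LR and 2.01 in LT, and that of rank 74 was 2.69 and 2.02. Just outside were these tags.
First outside: CATGgctagttttgctttcag
Second outside: CATGataatgaactcttaatg
The fold of the first was 2.71 in LR and 1.97 in LT, and that of the second 1.95 in LR and 2.05 in LT. The smaller folds of these 4 tags thus ran from 1.95 to 2.02.

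**Figure D1:**
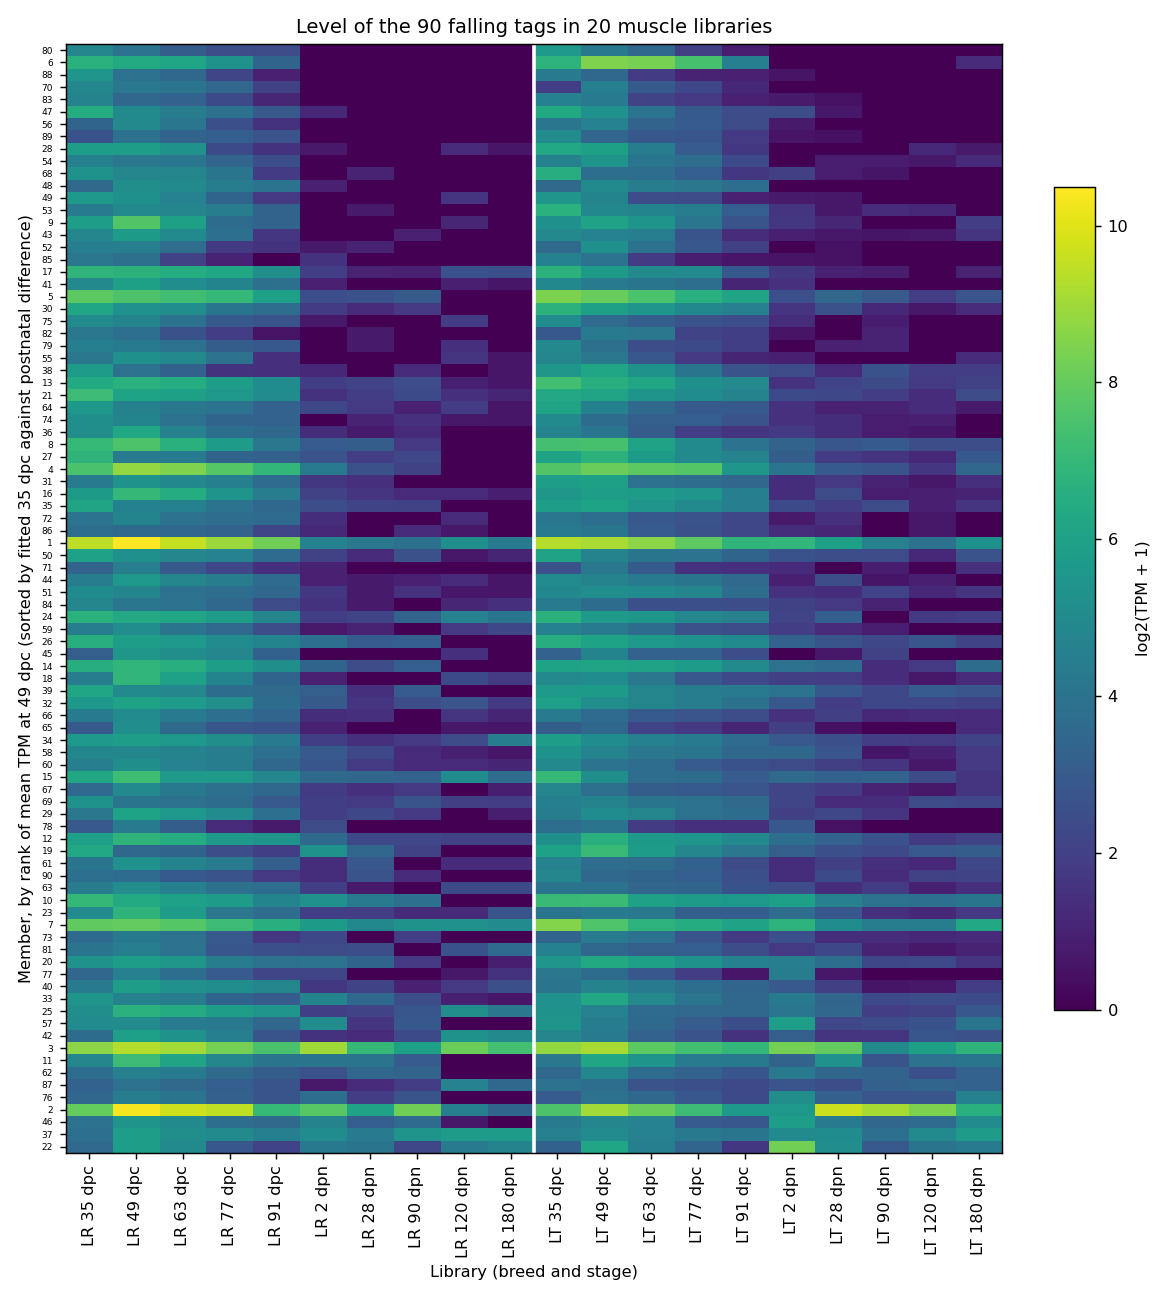
Level of the 90 members, as log2(TPM + 1) in color, in the 10 libraries of LR (left of the white line) and the 10 of LT (right), each in order of stage. Members are listed by rank, sorted by the fitted difference between 35 dpc and the stages after birth, largest at the top. The prenatal columns are bright for nearly all members, and most columns after birth are dark, except in the members at the bottom, with rank 22 last.

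At 35 dpc, before the window of the choice, every member was present in both breeds, with levels on either side of those at 49 dpc. All 90 members had at least 3 counts in both libraries of 35 dpc. Nearly all of the comparison set did too, with 99.8% of its tags in LR and 99.9% in LT. Their summed level was 5342 TPM in LR and 5762 TPM in LT, below that of 49 dpc in LR and close to it in LT. The median member had 28.9 TPM in LR and 30.3 TPM in LT at 35 dpc, against 36.2 and 25.4 TPM at 49 dpc.

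The level at 35 dpc lay above that of 49 dpc in 35 members in LR and in 49 in LT. In both breeds it lay above in 22 members (24.4%, against 28.5% of the comparison set), which thus fell over all 5 prenatal stages. In both breeds it lay below in 28 members (31.1%, against 21.6%), which thus had their prenatal peak at 49 dpc. The other 40 were split, with 27 below in LR and above in LT and 13 the other way. The median log2 ratio of 35 to 49 dpc was -0.50 in LR and 0.20 in LT, and in the comparison set it was -0.10 and 0.20. All these ratios use the 49 dpc libraries of the choice, so no test was made.

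Few members moved at least 2-fold the same way in both breeds between 35 and 49 dpc. Rank 47 was the only member at least 2-fold higher at 35 dpc in both breeds, beside 1.76% of the comparison set. In all, 6 members, ranks 2, 11, 22, 45, 48 and 71, were at least 2-fold lower at 35 dpc in both (6.67% of the members, beside 4.98% of the set). Ranks 45, 48 and 71 were chosen for mention after their values were seen. The counts were small and near the background, and they changed with the scaling, with 0 members higher and 10 lower when libraries were scaled by the trimmed mean of M values (TMM). Levels at 35 dpc within 2-fold of 49 dpc were found in 50 members in LR and 62 in LT, and in both breeds in 31 (34.4%, against 47.9% of the set).

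Rank 47 had 88.8 TPM in LR and 81.9 in LT at 35 dpc, and 30.2 and 39.2 TPM at 49 dpc. It was therefore at its highest of all 10 stages at 35 dpc in both breeds, and from there it fell without a break to 6.65 TPM in LR and 4.51 TPM in LT at 91 dpc.

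Rank 64 was close behind, with 47.7 TPM in LR and 69.4 in LT at 35 dpc against 23.5 and 23.6 TPM at 49 dpc. Rank 80 had 27.6 and 48.7 TPM at 35 dpc and 14.8 and 17.7 TPM at 49 dpc. Both breeds were higher at 35 than at 49 dpc in these 3 members.

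Rank 2 showed the opposite shape, with 255 TPM in LR and 188 TPM in LT at 35 dpc, 1304 and 531 TPM at 49 dpc and 129 and 50.9 TPM at 91 dpc. Rank 11 went from 27.4 to 147 TPM in LR and from 17.3 to 71.7 TPM in LT between 35 and 49 dpc, and rank 22 from 10.9 to 58.0 TPM and from 8.46 to 73.2 TPM. These 3 members thus had their highest prenatal level at 49 dpc in both breeds.

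**Figure D2:**
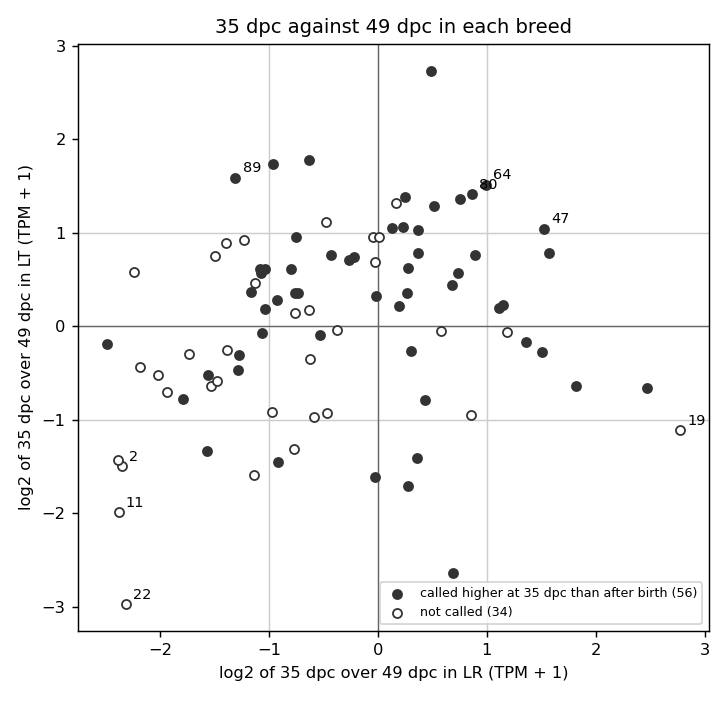
Ratio of 35 to 49 dpc of each member on the log2 scale of TPM + 1, in LR (horizontal axis) and in LT (vertical axis), with gray lines at 2-fold. Filled points are the 56 members that were higher at 35 dpc than after birth in the fit and open points the other 34. Rank 47 alone lies beyond 2-fold in both breeds at the upper right, ranks 2, 11 and 22 lie at the lower left, and ranks 19 and 89 lie in opposite corners.

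Differences between the breeds were fewer at 35 dpc than at 49 dpc, in the members as in the comparison set, and were not tested. A level that differed at least 2-fold between LR and LT was found in 12.2% of the members at 35 dpc and in 35.6% at 49 dpc, and in 14.3% and 36.3% of the set. The SD over the members of the log2 ratio of LT to LR was 0.74 at 35 dpc and 1.05 at 49 dpc. At 63, 77 and 91 dpc the share of members was 36.7%, 32.2% and 23.3%, beside 39.3%, 32.9% and 29.9% of the set. After birth it was 26.7%, 23.3%, 21.1%, 45.6% and 46.7% in order of age, beside 30.4%, 24.0%, 28.3%, 61.8% and 65.0%. The last 2 values of each rest on LR at 120 and 180 dpn, the libraries that stood apart.

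Rank 19, CATGttgaaaaacctatccag, which was chosen after its values were seen, had like levels in the breeds at 35 dpc, with 76.3 TPM in LR and 63.3 TPM in LT. From 49 to 91 dpc it had 10.3, 9.56, 4.602 and 2.85 TPM in LR and 138, 53.1, 27.8 and 16.7 TPM in LT. At 2 dpn LR was the higher breed, with 41.4 TPM against 8.15 TPM in LT.

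After birth most members lay below their level of 91 dpc or went out of detection, and a minority came back. The summed level in LR over the 5 ages after birth was 1273, 486, 660.1, 682 and 476 TPM. In LT it was 1521, 1561, 846, 654 and 677 TPM. Ranks 1, 2 and 3 made up 33.3% to 59.1% of the sum in LR from 49 dpc on, without an order by age. In LT they made up 28.2% at 49 dpc, 23.2% at 91 dpc, 72.4% at 28 dpn, 72.9% at 90 dpn and 37.2% at 180 dpn. The other 87 members together went from 4960.1 TPM at 49 dpc to 1204 at 91 dpc, 521 at 2 dpn and 283 at 180 dpn in LR. In LT they went from 4223 TPM over 958 and 1037 to 425 TPM at the same stages. Rank 22 alone went from 2.25 TPM at 91 dpc to 305 TPM at 2 dpn in LT, more than the rise of this sum.

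The median member had 2.57, 1.55, 1.39, 0.583 and 0.276 TPM over the 5 stages after birth in LR, and 3.28, 2.63, 1.52, 0.914 and 2.05 TPM in LT. At 91 dpc it had had 9.497 and 5.73 TPM. At least 3 counts were found for 67, 54, 49, 42 and 33 of the 90 members in LR and for 77, 72, 63, 50 and 60 in LT. The comparison set stayed at 92.6% or more in the 8 libraries other than LR at 120 and 180 dpn, whereas the members were at 54.4% to 85.6% there.

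In all 10 libraries after birth, 16 members (17.8%) had at least 3 counts, against 61.9% of the comparison set. Without LR at 120 and 180 dpn, 36 members (40.0%) did so, against 87.9% of the set. Under 3 counts in each of the 10 libraries was found for 4 members, ranks 70, 80, 88 and 89, and ranks 70 and 80 were at 0 in all of them. These counts of 4 and 2 members were the same without LR at 120 and 180 dpn, and in the set such tags were 0.285% and 0.142% in all 10 libraries. Rank 89 was named after its values were seen. At 0 in both LR at 120 and at 180 dpn were 37 members (41.1%, against 20.4% of the set), and at 0 in both LT libraries of these ages were 22 (24.4%, against 2.27%).

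The mean over the 5 libraries after birth was below the level of 91 dpc in both breeds for 74 members (82.2%, against 65.3% of the set) and above it in both for 5 (5.56%, against 13.5%). These were 73 members and 8 (8.89%, against 13.5%) without LR at 120 and 180 dpn. The mean of all 10 libraries after birth was under 1% of the mean at 49 dpc in 11 members (12.2%, against 1.10% of the set), from 1% to 10% in 52 (57.8%, against 10.05%), from 10% to 50% in 23 (25.6%, against 43.9%) and at least 50% in 4 (4.44%, against 45.0%). The numbers of members were 13, 51, 21 and 5 without LR at 120 and 180 dpn. The median member kept 4.98% of its mean level at 49 dpc, and the median tag of the set 45.1%, or 5.76% and 48.5% without LR at 120 and 180 dpn. As the members had been chosen for a fall up to 91 dpc, part of this gap was in place before birth.

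**Figure D3:**
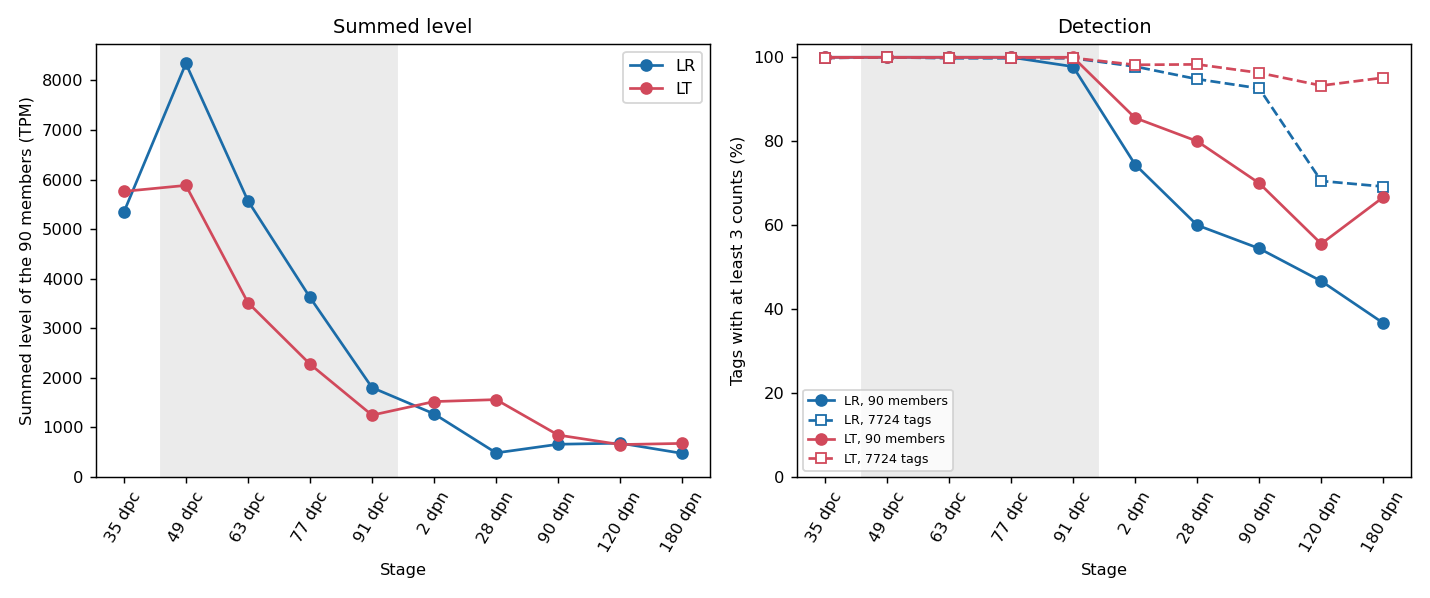
Left, summed level of the 90 members in TPM by stage in LR and LT. Right, percent of the members (filled circles) and of the 7724 tags of the comparison set (open squares) with at least 3 counts, with the 4 stages of the choice shaded in both. The sum falls from 8342 TPM (LR) and 5883 TPM (LT) at 49 dpc to 476 and 677 TPM at 180 dpn, and detection of the members drops to 36.7% and 66.7% at 180 dpn, while the set stays at 92.6% or more except in LR at 120 and 180 dpn.

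Across birth, from 91 dpc to 2 dpn, many members were lower again in both breeds. At least 2-fold lower at 2 dpn in both breeds were 31 members (34.4%), beside 16.4% of the comparison set, and at least 2-fold higher in both were 6 (6.67%), beside 3.5%. The median log2 ratio of the members was -1.66 in LR and -0.70 in LT, and that of the set -0.76 and -0.14. The 91 dpc libraries took part in the choice, so no test was made. With TMM scaling the members lower in both numbered 20, and with a pseudocount of 5 they numbered 13. Shares of the set under these settings are not given, so whether the members exceeded the set there is not shown.

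Rank 5 went from 59.1 to 4.81 TPM in LR and from 68.0 to 4.98 TPM in LT over birth. Rank 4 went from 122 to 18.3 TPM and from 46.4 to 15.6 TPM, and rank 6 from 9.497 and 21.98 TPM to 0 in both. Rank 1 went from 295 to 24.4 TPM in LR, whereas LT had 116 TPM at 91 dpc and 124 TPM at 2 dpn. The 6 members that were higher at 2 dpn in both breeds were ranks 3, 22, 46, 57, 76 and 78.

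From 2 to 28 dpn, stages that the choice did not use, the members moved as the comparison set did. No member was at least 2-fold higher at 28 dpn in both breeds, beside 2.46% of the set, and 12 (13.3%) were at least 2-fold lower in both, beside 12.4%. The median log2 ratio was -0.47 in LR and -0.45 in LT, and in the set -0.39 and -0.57. Each breed and stage was a single library, so these shares have no replicate check. Castration fell between these 2 ages and cannot be told apart from age. With TMM scaling 2 members were higher and 6 lower, and with a pseudocount of 5 the members lower in both numbered 3. The set was not set beside them under these settings.

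Only libraries outside the choice were used to test whether the members were higher at 35 dpc than after birth. The 2 libraries of 35 dpc were compared with the 10 after birth by the quasi-likelihood test of edgeR, with breed as covariate and all 83579 tags with at least 30 counts in these 12 libraries. Adjusted p-values are those of Benjamini and Hochberg over all 83579 tags, and a tag was called at an adjusted p below 0.05. Stages stand in for replicates in this test, so its p-values measure the spread between libraries of different stages and breeds, not between animals of the same stage.

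At 35 dpc 56 of the 90 members were called higher (62.2%), beside 6.96% of all tags tested and 10.7% of the comparison set, and no member was called lower, beside 3.48% of all tags. Without adjustment, 72 members had p below 0.05, beside 27.9% of all tags tested. The log2 fold change was positive in 84 members and negative in 6, with a median of 3.51 over the members, 0.49 over the set and 0.17 over all tags. All 90 members passed the low-count filter, but 28 of them had under 30 counts in the 10 libraries after birth and passed through their counts at 35 dpc, so that the shares over the members are given as a description. Of the 56 called members, 25 were among these 28 and 31 among the other 62.

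With 1 library left at 35 dpc few or no tags were called. Without LR at 35 dpc no member and no tag at all was called by edgeR, with 53 of the 88 members tested (60.2%) and 9.67% of all tags at an unadjusted p below 0.05. Without LT at 35 dpc 2 members and 39 tags in all were called. The members' median log2 fold change was 3.09 without LR and 3.74 without LT at 35 dpc. Leaving out each library after birth in turn gave 50 to 62 called members. Without LR at 120 and 180 dpn, 69 members were called, beside 9.70% of all tags called higher. DESeq2 called 61 members, again all higher at 35 dpc, beside 6.31% of all tags. Ranks 6, 70, 80 and 88, which edgeR had called, were not among the 61. When libraries were scaled to their total of clean tags, 72 members were called, beside 14.0% of all tags called higher, and this scaling moved the median log2 fold change of all tags from 0.17 to 0.96. Under that scaling 83.6% of all calls were of higher tags, against 66.7% with TMM, so that sizes of change in these comparisons hold relative to a shift of 0.78. The members' median was 4.25 under that scaling, so it lay above that of all tags in both cases.

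A description without any model gave a like picture. In 77 members (85.6%), all 10 libraries after birth lay below both libraries of 35 dpc, beside 43.2% of the comparison set. Without LR at 120 and 180 dpn this held for 79 members (87.8%) and for 45.0% of the set. In 0 members did all 10 lie above, against 4.27% of the set.

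Among the members with the highest levels, rank 5 had 229.6 TPM in LR and 344 TPM in LT at 35 dpc. After birth its lowest value was 0, its median 5.07 and its highest 9.95 TPM, and it was at 0 in LR at 120 and 180 dpn alone. The groups were far apart, with a log2 fold change of 5.13 (SE 0.88, edgeR adjusted p = 0.00176). Each SE here and below was derived from the test, as the absolute log2 fold change divided by the square root of its F statistic.

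Rank 1, the most abundant member at 49 dpc, had 705 and 648 TPM at 35 dpc, and after birth a lowest value of 14.0, a median of 23.5 and a highest of 124 TPM. Its log2 fold change was 3.64 (SE 0.70, edgeR adjusted p = 0.00369). Rank 1 stayed detectable at every age, with the highest value after birth in LT at 2 dpn.

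Rank 4 had 180.2 and 198 TPM at 35 dpc and 0 to 18.3 TPM after birth with a median of 5.36, and was at 0 in LR at 120 and 180 dpn alone. Its log2 fold change was 4.13 (SE 0.94, edgeR adjusted p = 0.00966). Rank 8 had 131 and 162 TPM at 35 dpc and 0 to 9.06 TPM after birth with a median of 5.41, and it was at 0 in the same libraries, with a log2 fold change of 4.20 (SE 0.88, edgeR adjusted p = 0.00625). Without those libraries the lowest value after birth was 2.74 TPM in rank 5, 2.13 TPM in rank 4 and 2.32 TPM in rank 8.

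Rank 6 was among the 28 members that passed the low-count filter through 35 dpc. It had 103 TPM in LR and 108 TPM in LT at 35 dpc, and 85.1 and 357 TPM at 49 dpc. After birth it was at 0 in 9 of the 10 libraries and had 4 counts (1.36 TPM) in LT at 180 dpn. Summed over the libraries, its 758 counts at 35 dpc against 4 after birth gave a ratio per clean tag of 921, with an exact 95% interval of 358 to 3389. The interval covers counting error only.

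Rank 88 had 45.3 and 19.3 TPM at 35 dpc and 2 counts after birth, both in LT at 2 dpn, a ratio of 605 with an exact 95% interval of 166 to 5024. Ranks 70 and 80 were at 0 in all 10 libraries after birth. Against 3 counts per library, a mean of 0.905 TPM, rank 80 with 27.6 and 48.7 TPM was at least 42.2-fold higher at 35 dpc, and rank 70 with 28.3 and 2.71 TPM at least 17.2-fold. In rank 70 this level was that of LR, as LT had 8 counts. These 3 members were among the 28 too, so their values are a description and their p-values are not given.

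The members with the largest fall to 91 dpc did not share a course after birth. Ranks 28, 49 and 85 were among the 28 that passed the low-count filter through 35 dpc. Rank 28 had 55.7 TPM in LR and 76.1 TPM in LT at 35 dpc and at most 1.46 TPM after birth. Rank 49 had 49.1 and 44.3 TPM at 35 dpc and at most 2.04 TPM after birth, and rank 85 had 16.8 and 23.3 TPM and at most 1.93 TPM. All 3 were higher in both libraries of 35 dpc than in any library after birth. Rank 22 came back, and its level at 35 dpc was below most of those after birth.

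Called members were frequent among those that were already falling from 35 dpc. Of the 22 members with 35 above 49 dpc in both breeds 20 were called, and of the 28 with 35 below 49 dpc in both 10 were called. The level at 35 dpc enters both measures, so this is a description. The like split is not given for the comparison set, so the counts do not show a trait particular to the members. Of the 56 called members, 25 had passed the low-count filter only through 35 dpc. Ranks 47 and 64 were among the 20. Rank 64 had at most 3.85 TPM after birth, with a log2 fold change of 4.402 (SE 0.68, edgeR adjusted p = 0.000825). Rank 47 had at most 4.53 TPM after birth and passed the low-count filter through 35 dpc.

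**Figure D4:**
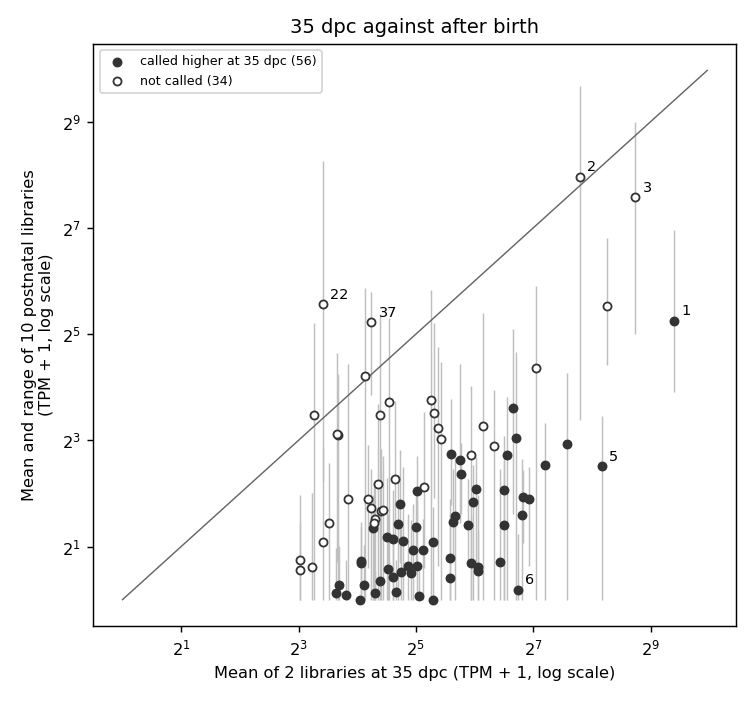
Mean of the 2 libraries of 35 dpc (horizontal axis) against the mean of the 10 libraries after birth (vertical axis) for each member, both as TPM + 1 on log scales, with gray bars from the lowest to the highest library after birth. Filled points are the 56 members called higher at 35 dpc by edgeR and open points the other 34, and numbers are ranks. Nearly all members lie under the line of equality, rank 6 far under it, and ranks 2, 22, 37, 46 and 76 lie above it.

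The members with the highest level after birth, ranks 2, 3 and 22, were not called. Rank 3 had 412 TPM in LR and 441 in LT at 35 dpc and 31.1 to 512 TPM after birth with a median of 145 (log2 fold change 0.42, SE 0.86, edgeR adjusted p = 0.809). It had fallen to 175 and 123 TPM at 91 dpc and then stood at 512 TPM in LR and 312 TPM in LT at 2 dpn. Values after birth lay on either side of those at 35 dpc.

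Rank 2 had 255 and 188 TPM at 35 dpc and 9.40 to 819 TPM after birth with a median of 158 (log2 fold change -0.52, SE 1.22, edgeR adjusted p = 0.836). The sign of this change turned with the scaling by total clean tags (0.27) and without LT at 35 dpc (0.36). After birth the breeds parted. LR had 215, 65.3, 299.9, 22.2 and 9.40 TPM in order of age, and LT 48.0, 819, 563, 341 and 101 TPM. The level of LT at 28 dpn was above its level of 531 TPM at 49 dpc.

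Rank 22 had 10.9 and 8.46 TPM at 35 dpc. LR had 18.0, 15.5, 3.71, 19.8 and 24.9 TPM after birth, and LT 305, 34.7, 6.58, 15.2 and 19.8 TPM. The value of LT at 2 dpn was the highest of all its 20 libraries, and the other 9 after birth ran from 3.71 to 34.7 TPM. Its log2 fold change was -2.23 (SE 1.28, edgeR adjusted p = 0.271).

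Each member was chosen with 49 dpc as the highest of 4 stages, so the gaps to the set that follow were in part fixed by the choice. A level after birth above that of 49 dpc in the same breed was found for 10 members (11.1%, against 60.2% of the set), and for 9 without LR at 120 and 180 dpn. In 7 members (7.78%, against 36.8%) the highest library after birth of such a breed was that of 2 dpn, and in 7 (against 50.7%) such a library was of LT. Ranks 46, 57 and 76 were of this kind, and are named with ranks 37 and 78 after their values were seen. Rank 57, CATGctcagtttggatgactt, was above 49 dpc in both breeds, with 33.1 TPM in LR and 56.2 TPM in LT at 2 dpn against 32.3 and 21.1 TPM at 49 dpc, and it was back at 2.06 and 3.71 TPM at 28 dpn. Rank 46, CATGacggaattctggtggtg, had 25.0 and 57.8 TPM at 2 dpn after 11.4 and 6.20 TPM at 91 dpc. Rank 76, CATGgttttatctccagaagc, had 12.8 and 35.8 TPM after 5.70 and 4.13 TPM. In these 3 members LT was higher than LR at 2 dpn, whereas LR had been higher than LT at 91 dpc. The comparison set leaned the same way. Of its 7724 tags, 4716 were higher in LR at 91 dpc and 5169 were higher in LT at 2 dpn.

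Rank 37, CATGtacacctgttccaggac, differed in that it stayed up at all ages. It had 13.2 and 22.7 TPM at 35 dpc, 21.8 and 15.8 TPM at 91 dpc and 13.4 to 54.2 TPM after birth with a median of 33.4, and in LR at 120 and 180 dpn it stood at 53.9 and 53.6 TPM. Its log2 fold change was -1.85 (SE 0.87, edgeR adjusted p = 0.169).

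**Figure D5:**
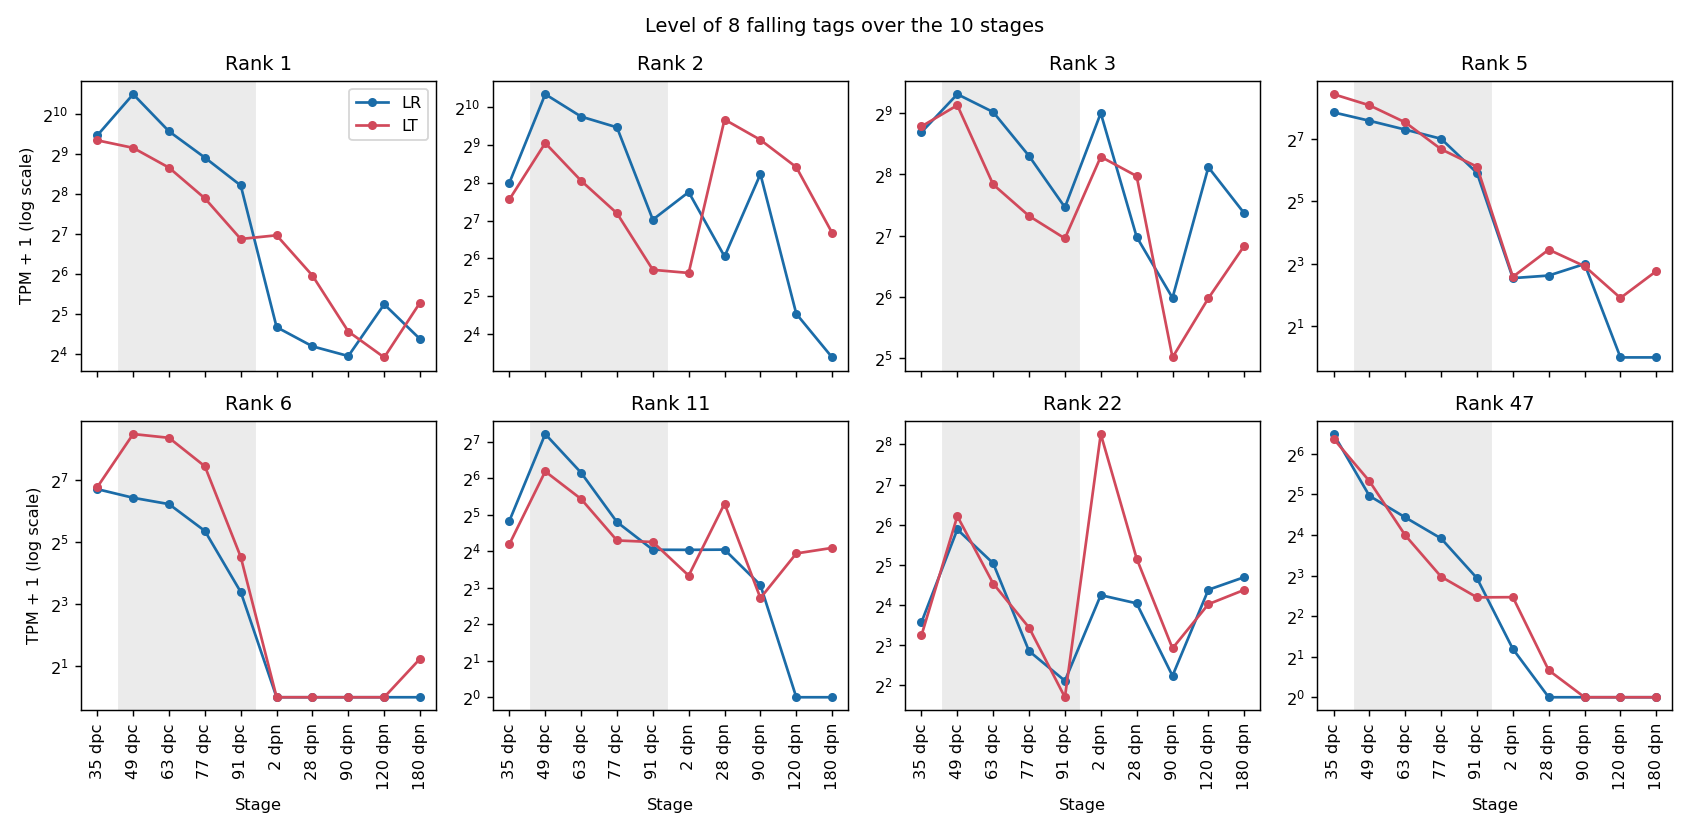
Level of 8 members over the 10 stages in LR (blue) and LT (red), as TPM + 1 on a log scale that differs between panels, with the 4 stages of the choice shaded. Each point is 1 library without a replicate. Ranks 5, 6 and 47 have at most 9.95 TPM after birth. Rank 1 falls across birth in LR, but in LT it has 116 TPM at 91 dpc and 124 TPM at 2 dpn. Ranks 2, 3 and 22 rise again at 2 or 28 dpn. After birth rank 11 stays between 5.57 and 38.4 TPM except at 0 in LR at 120 and 180 dpn.

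The members showed no called trend with age after birth. Of the 62391 tags tested over the 10 libraries on log2 of days, 62 were members, since the other 28 had under 30 counts, and edgeR called 0.0% of all tags and 0 members. Without adjustment, 10 of the 62 members (16.1%) had p below 0.05, beside 9.19% of all tags, and the smallest adjusted p was 0.143. DESeq2 called 2 members, both falling, among 1289 tags in all. Without LR at 120 and 180 dpn, edgeR called 1 member and 118 tags. The slope was negative in 48 of the 62 members, with a median of -0.16 per unit of log2 days, beside -0.12 for the comparison set and -0.08 for all tags.

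No breed difference of a member was called over the 6 stages outside the choice. With stage as a block, edgeR called 1286 of 83579 tags (1.54%) and 0 members, and DESeq2 called 0 members too. Of the 7724 tags of the comparison set, edgeR called 16 higher and 3 lower in LT, and DESeq2 46 and 14. At such rates few or no calls would fall on 90 tags, so the 0 is near the background. Without adjustment 4 members (4.44%) had p below 0.05 by edgeR and 6 (6.67%) by DESeq2, beside 6.39% and 6.55% of all tags, and the smallest adjusted p by edgeR was 0.405. LT was higher in 67 members and LR in 23, with a median log2 ratio of 0.59, close to the 0.54 of all tags. Without LR at 120 and 180 dpn 0 members were called among 1550 tags, and the medians were 0.39 and 0.08. Whether the difference between 35 dpc and the later ages itself differed by breed was tested by an interaction term, added after the data had been seen. It called 0 tags and 0 members in edgeR, with 0 members at an unadjusted p below 0.05.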

How the data were processed

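Longissimus muscle of LR and LT at 10 stages gave 20 DGE libraries, each a pool of 3 animals. The authors removed adaptor, low-quality and one-copy tags and deposited, per library, a count for every distinct tag that was left, without normalization, and beside it the same count as TPM. Every listed count was at least 2. The submitters' processing notes name Bowtie 0.12.3 and NCBI36, and no gene assignment of tags was used. Libraries were grouped by breed and stage from their labels.

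TPM was recomputed from the deposited counts. The members and lists were chosen with earlier results of these data known. Tests used the counts of the 12 libraries outside the choice, in edgeR 4.0.16 (quasi-likelihood test, TMM, at least 30 counts in all, Benjamini-Hochberg over all tags, called at an adjusted p below 0.05), in R 4.3.3. The 3 tests were of 35 dpc against after birth with breed as covariate, of the slope on log2 of days after birth with breed as covariate, and of LT against LR with stage as a block. Ratios of 2 libraries used TPM + 1 and no test, and the same share of the 7724 tags with at least 10 TPM at 49 dpc is given beside them. Floors of 3 counts and exact intervals cover counting error only, as PCR copies are not independent molecules.

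Members were named by rule: the 5 highest at 49 dpc, the 5 largest falls, up to 4 called in each direction at 35 dpc against after birth and up to 3 in each direction of the trend, the 3 highest and 3 lowest ratios of 35 to 49 dpc, the 3 highest after birth, and 2 tags on each side of the fold limit. Alternatives were scaling by total clean tags, DESeq2 1.42.0, no low-count filter, the comparison set alone, merging of tags 1 base apart (5 times or more as abundant), omission of LR at 120 and 180 dpn, of each library or of each stage pair, days in place of log2 of days, no stage block, and other limits, pseudocounts and scalings of the choice and ratios. The tests were tested on simulated data with 200 changed tags, drawn from the tags with higher counts. The dispersion, the spread between libraries beyond counting error, was set to the same value for every simulated tag. That value was below the common dispersion of the real counts. The latter was 0.944 for 35 dpc against after birth, 0.854 for the trend and 0.864 for the breeds. The figures that follow thus hold for quieter data than these. For 35 dpc against after birth with 83579 tags, 11 of 100 tags changed 4-fold and 81 of 100 changed 16-fold were recovered, with 3 false calls of 95. For the trend with 62391 tags it was 7 and 77 of 100 with 2 false calls of 86, and for the breeds with 83579 tags 30 and 100 of 100 with 0 false calls of 130. Other steps used Python 3.11.15 with pandas 2.3.3.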

Additional observations from a re-analysis of the deposited data

Results flagged for a closer look

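Over the 10 libraries after birth, 22 sets of values of the named members were searched for a library far from the others, and 8 were found. For normally distributed values chance gives about 1 in 20 such sets, and the rate for these skewed values was not computed. The library of LT at 2 dpn stood out high in 4 of them, with 124 TPM for rank 1, 305 TPM for rank 22, 4.53 TPM for rank 47 and 0.453 TPM for rank 88. The last of these is 2 counts, so it lies under the floor of detection. The others were rank 11 in LT at 28 dpn with 38.4 TPM, rank 49 in LR at 120 dpn with 2.04 TPM, rank 85 in LR at 2 dpn with 1.93 TPM and rank 6 in LT at 180 dpn with 1.36 TPM. All 8 were high values in a single library without a replicate.

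In 5 members the breeds moved at least 2-fold in opposite directions between the same stages, each in single libraries, and the difference was not tested. From 28 over 2 dpn, the log2 ratio of LT minus that of LR was 5.77 in rank 2, which fell from 215 to 65.3 TPM in LR and rose from 48.0 to 819 TPM in LT. It was -2.17 in rank 68, which had at most 2.94 TPM at these stages. From 35 over 49 dpc it was -3.89 in rank 19, which went from 76.3 to 10.3 TPM in LR and from 63.3 to 138 TPM in LT. It was 2.89 in rank 89, which went from 5.20 to 14.3 TPM in LR and from 32.1 to 10.04 TPM in LT. From 2 dpn over 91 dpc it was 2.86 in rank 42, with 1.93 and 5.70 TPM in LR and 8.15 and 1.88 TPM in LT.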

How the results depend on the processing

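The choice gave 90 members, and 141 with a fold of 1.5, 31 with a fold of 4, 143 with 5 TPM and 51 with 20 TPM at 49 dpc, and 383 when only the ends had to differ 2-fold. TMM scaling gave 89, of which 80 were shared, and a pseudocount of 0.1 gave 92. Members at least 2-fold higher at 35 than at 49 dpc in both breeds numbered 2 with a pseudocount of 0.1, 0 with 5 and 0 with TMM scaling, and those lower 10 with TMM. At 2 dpn against 91 dpc, 3 were higher and 13 lower with a pseudocount of 5, and 20 lower with TMM. At 28 against 2 dpn, 2 were higher with a pseudocount of 0.1 and 2 with TMM, and 3 lower with a pseudocount of 5 and 6 with TMM. At 35 dpc against after birth, 48 to 72 members were called under the alternatives that kept all libraries or left out LR at 120 and 180 dpn, and 0 to 62 with a library left out, the lowest without LR and 2 without LT at 35 dpc. All these calls were of higher members. The trend gave 2 called members with DESeq2 and 1 each with no low-count filter, with the comparison set alone and without LR at 120 and 180 dpn. For all tags, calls of 35 dpc against after birth ran from 0 to 15157 and those of the trend from 0 to 1289. The breed comparison gave 0 members throughout and, over all tags, 0 in the comparison set alone. The sign turned in rank 2 with total clean tags (log2 0.27) and, at -1.99 to 0.36 with a library left out, without LR at 90 dpn (0.025) and LT at 35 dpc. It turned in rank 11 in the comparison set alone (-0.082), without LR at 120 and 180 dpn (-0.27) and, at -0.89 to 1.16 with a library left out, without LR at 35 dpc. Neither was called in any of these. Of 341 alternative values of the named members, 303 kept direction and call and 30 lost the call, 26 of them without a library of 35 dpc. The rest of the lost calls were those of ranks 6, 70, 80 and 88 with DESeq2. Where no construction shows it, the cause was not tested. Single libraries of 2157111 to 5322022 clean tags limit members near 1 TPM after birth.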
